A study of Homo sapiens with 2 samples.

Results

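The coenzyme Q synthesis genes described here are the 10 genes PDSS1, PDSS2, COQ2, COQ3, COQ5, COQ6, COQ7, COQ8A, COQ8B and COQ9, chosen by name for their part in making coenzyme Q10, out of 60616 genes in the expression tables. The study sequenced mRNA of HSC-3, an established cell line from a human squamous cell carcinoma of the tongue, to see how cancer cells respond to ferroptotic stress. There was 1 library of cells given the vehicle, DMSO at 0.1%, and 1 library of cells given the ferroptosis inducer FIN56 at 1 µM for 48 h. The label of the DMSO library gives no time. The expected counts of all genes, which are read numbers that RSEM estimates and need not be whole, came to 70184517 with DMSO and 73062209 with FIN56. With 1 library per condition no difference has a replicate check, and any other way in which the DMSO and FIN56 cultures differed cannot be told apart from the effect of FIN56.

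Coenzyme Q is a lipid of the inner mitochondrial membrane that carries electrons along the respiratory chain, and in its reduced form it traps lipid radicals in membranes, which opposes ferroptosis. Its long isoprenoid tail is built from intermediates of the mevalonate pathway and is joined to a ring derived from tyrosine, after which a mitochondrial enzyme complex modifies the ring, or head. FIN56 is described to deplete coenzyme Q10 by binding squalene synthase, besides causing loss of the lipid peroxidase GPX4.

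The libraries had the expression of a squamous epithelial line. All 9 squamous epithelial markers were expressed, with a summed TPM, a level scaled for gene length that has the same total in each library, of 8305 in DMSO and 7705 in FIN56, and KRT5, a basal keratin, was the most abundant, at an FPKM of 2078 and 1647. By FPKM 5 of the 9 were higher and 4 lower in FIN56, with a median log2 ratio of 0.11 and ratios from 0.781 for SFN to 1.44 for EPCAM. The counting interval described below lay above 1 for 6 of them and below 1 for 3, KRT5, KRT14 and SFN, the most abundant of the list, against 42.2% and 37.4% of the genes with more reads. FPKM is likewise scaled for effective gene length and for the size of the library. Of 8 markers of other cell types, the leukocyte gene PTPRC and the T cell gene CD3E had 0 counts in both libraries, and the endothelial gene PECAM1 had 0 in DMSO and 1 in FIN56. Their summed TPM was 92.5 in DMSO and 41.2 in FIN56, nearly all of it from CD68, a lysosomal glycoprotein known as a macrophage marker, at an FPKM of 57.3 and 24.6. COL1A1, a fibroblast collagen, was also lower in FIN56, with 919 and 562 counts, and PDGFRB, a receptor of mesenchymal cells, had 34 and 15. With CD68, these make 3 of the 5 genes of the list above 0 FPKM in both libraries that lay at or below 1/1.5. Among all genes above 0 FPKM in both libraries 17.3% did so, and among the genes with more reads 5.43%. The part of the marker levels in the results below was not tested.

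All 10 coenzyme Q synthesis genes were expressed in both libraries, the fewest expected counts being 696 for COQ8A in DMSO, and none was lost to a filter on low values. COQ2 was the member that differed most: its FPKM in the FIN56 library was 0.547 times that in the DMSO library. The other 9 members had FPKM ratios from 0.801 for COQ8B to 1.39 for COQ8A. No member (0 of 10) reached a ratio of 1.5, a level reached by 14.7% of the 24454 genes whose FPKM was above 0 in each library. COQ2 alone (1 of 10) lay at or below 1/1.5, as did 17.3% of those genes. Many genes past these thresholds have few reads, so the 10327 genes whose expected counts summed to 1000 or more over the libraries, a group that holds all 10 members, are a closer background. Of these, 2.92% reached 1.5 and 5.43% lay at or below 1/1.5. The count of 1 member in 10 is too small to set the members apart from either background. The median log2 FPKM ratio of the members was -0.08, from 4 higher and 6 lower members, against 0.00 over all 24454 genes and 0.04 over the 10327 genes with more reads.

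**Figure D1:**
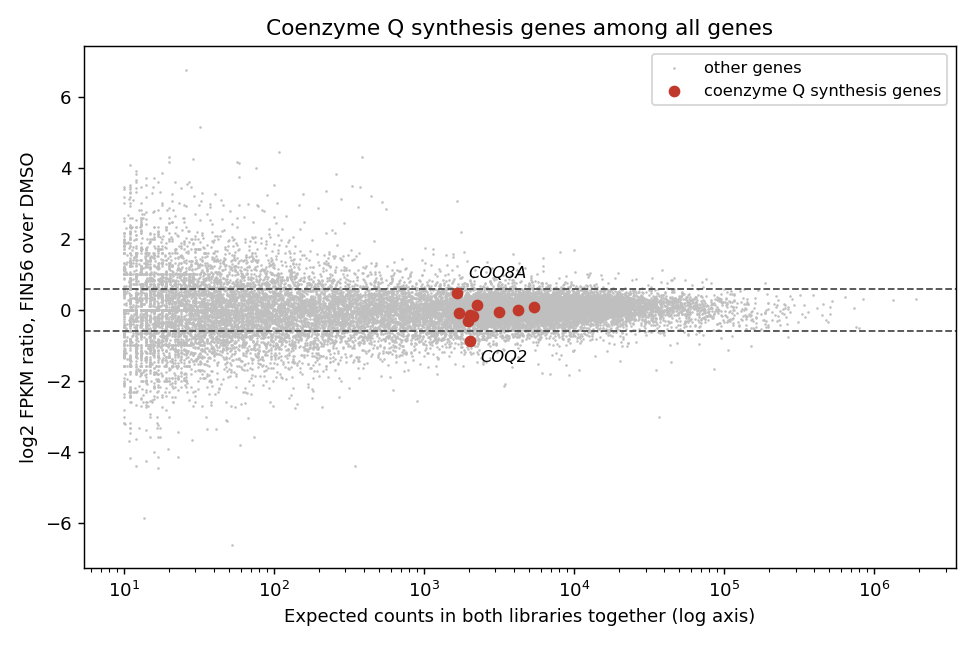
Log2 FPKM ratio (FIN56 over DMSO, vertical axis) of each gene against its expected counts in both libraries together (log axis), for genes with at least 10 counts. Dashed lines mark ratios of 1.5 and 1/1.5; of the 10 coenzyme Q synthesis genes (red), COQ2 alone lies past a line.

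For each count ratio an exact 95% interval (Clopper-Pearson) was computed from rounded expected counts and library totals. It covers counting error only, since reads that carry no molecular identifier need not stem from separate molecules, and it sets 1 library against 1 other and not FIN56 against DMSO as conditions. The interval lay above 1 for PDSS1, COQ5 and COQ8A and below 1 for COQ2, COQ3, COQ6, COQ7 and COQ8B, while those of PDSS2 and COQ9 included 1. Among the 10327 genes with more reads it lay above 1 for 42.2% and below 1 for 37.4%, so that 3 and 5 of 10 members are near what genes of this depth show in general.

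PDSS1 and PDSS2 encode the subunits of the decaprenyl diphosphate synthase, which builds the isoprenoid tail. PDSS1 had 1039 expected counts in DMSO and 1234 in FIN56, and an FPKM of 11.2 and 12.3. It was slightly higher in the FIN56 library, with an FPKM ratio of 1.09 and a count ratio of 1.14 (1.05 to 1.24). PDSS2 had 995 and 1033 expected counts and an FPKM of 6.15 and 5.55. Its direction depended on the measure: the FPKM ratio was 0.902, the count ratio was 0.997 (0.913 to 1.09), and counts scaled by median-of-ratios size factors gave 1.02. By TPM, which is divided by length, the level of PDSS1 was 1.82 times that of PDSS2 in DMSO and 2.20 times in FIN56. By counts alone the PDSS1 to PDSS2 ratio was 1.14 times higher in FIN56, with an exact conditional 95% interval of the odds ratio of 1.01 to 1.29. Such a ratio of counts within each library does not depend on how the libraries are scaled to each other.

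COQ2 (ENSG00000173085) encodes the membrane-bound prenyltransferase that joins the tail to the ring, the step at which tail and head meet. It lies on the minus strand at chr4:83261536-83284914 (GRCh38), where GENCODE release 44 lists 6 transcripts, and its canonical transcript has 7 exons. The gene had 1292 expected counts in DMSO and 722 in FIN56, and an FPKM of 13.0 and 7.12. The FIN56 library was therefore the lower, with an FPKM ratio of 0.547 and a count ratio of 0.537 (0.489 to 0.588). This interval lies below those of the other 9 members. In a bulk library a lower level in each cell and a smaller share of cells with the transcript cannot be told apart. Of the 10327 genes with at least 1000 counts, 1.49% had a lower FPKM ratio than COQ2. Against the summed counts of the other 9 members, which needs no scaling between libraries, COQ2 was 0.543 times as abundant in FIN56 as in DMSO (exact conditional 95% interval 0.493 to 0.597). Against PDSS1 and PDSS2 together, the preceding enzyme, it was 0.501 times as abundant (0.449 to 0.560). The COQ2 counts were whole in either library, so no read appears to have been split with a related sequence, and no annotated gene overlaps its span. Its effective length, 1414 bases in DMSO and 1388 in FIN56, hardly differed, so the FPKM and count ratios are close.

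**Figure D2:**
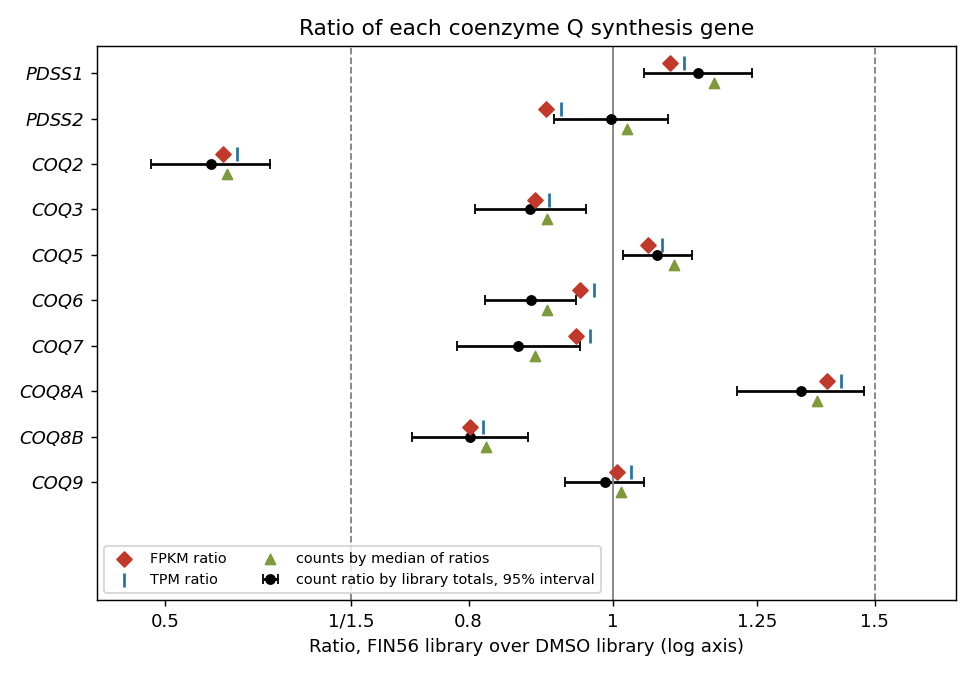
Ratio of each coenzyme Q synthesis gene, FIN56 library over DMSO library (log axis), by FPKM, TPM, counts scaled by median of ratios, and counts scaled by library totals with the 95% counting interval. COQ2 lies below 1/1.5 (left dashed line) by each of the 4 measures drawn, COQ8A lies between 1 and 1.5 by each, and PDSS2 and COQ9 fall on either side of 1.

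COQ3, COQ5, COQ6 and COQ7 encode enzymes that modify the head. COQ3, the O-methyltransferase of the pathway, had 1113 expected counts in DMSO and 1020 in FIN56 and an FPKM of 13.7 and 12.1, a ratio of 0.887. COQ5, the C-methyltransferase, had 2559 and 2855 counts and an FPKM of 27.1 and 28.6, a ratio of 1.06. The O-methyltransferase was thus slightly lower in the FIN56 library and the C-methyltransferase slightly higher, with count ratios of 0.880 (0.808 to 0.959) and 1.07 (1.02 to 1.13). COQ6, a flavin-dependent hydroxylase, had 1659 counts in DMSO and 1521 in FIN56 and an FPKM of 17.3 and 16.4. COQ7, the hydroxylase of the penultimate step, had 906 and 815 counts and an FPKM of 9.85 and 9.30. Both hydroxylases were lower in the FIN56 library by less than the thresholds, at FPKM ratios of 0.951 and 0.944. Their count ratios were further from 1, at 0.881 (0.821 to 0.945) for COQ6 and 0.864 (0.785 to 0.951) for COQ7. Summed over the 4 head-modifying enzymes, TPM was 101.5 in both libraries.

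COQ8A and COQ8B encode paralogous proteins with a kinase-like fold and ATPase activity that aid the head-modifying complex, and inherited loss of COQ8A is known for cerebellar ataxia and that of COQ8B for kidney disease. COQ8A (ENSG00000163050) had 696 expected counts in DMSO and 969 in FIN56, and an FPKM of 3.78 and 5.27. It was the member most raised in the FIN56 library, with an FPKM ratio of 1.39 and a count ratio of 1.34 (1.21 to 1.48), short of 1.5. COQ8B had 1078 and 900 counts and an FPKM of 6.99 and 5.60, lower in the FIN56 library at an FPKM ratio of 0.801 and a count ratio of 0.802 (0.733 to 0.877). The paralogs therefore differed in opposite directions between these libraries, and did so under each scaling tried. In TPM, COQ8A stood at 0.541 times the level of COQ8B in DMSO and at 0.942 times in FIN56. By counts the COQ8A to COQ8B ratio was 1.67 times higher in the FIN56 library (exact conditional 95% interval 1.46 to 1.91). COQ8A lies on the plus strand at chr1:226940286-226987544, and 2761 of its 4736 exonic bases are also exons of AL391628.1, a gene annotated on the same strand, so reads between them may be divided. That gene had 77.4 counts in DMSO and 103.4 in FIN56, and the summed counts of the pair gave a ratio of 1.33 (1.21 to 1.46), an alternative chosen after seeing the data. COQ9, a lipid-binding protein that works with COQ7, had 2084 counts in DMSO and 2142 in FIN56 and an FPKM of 23.7 and 23.8. Its direction depended on the scaling, with an FPKM ratio of 1.01 and a count ratio of 0.987 (0.929 to 1.05).

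The order of the members by level was much alike in the libraries. In TPM, COQ5 was the highest member, at 40.5 in DMSO and 43.7 in FIN56, followed by COQ9 (35.4 and 36.4) and COQ6 (25.8 and 25.1). COQ8A was the lowest, at 5.66 and 8.06. The highest member stood 7.16 times above the lowest in DMSO and 5.42 times in FIN56. COQ2, at a TPM of 19.5 in DMSO, ranked 5 among the members, next to COQ3 at 20.5, and these neighbours did not differ beyond counting error (18.4 to 20.6 and 19.3 to 21.7). In FIN56 its TPM of 10.9 (10.1 to 11.7) ranked 7, below COQ7 at 14.2 (13.3 to 15.2). PDSS1 and COQ3 were not separable in the FIN56 library, at 18.7 and 18.5. Nor were COQ8B, PDSS2 and COQ8A there, at 8.56, 8.49 and 8.06, whereas in DMSO the intervals of these 3 genes did not overlap. The summed TPM of the 10 members was 198.5 in DMSO and 192.7 in FIN56, and without COQ2 it was 179.01 and 181.8.

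**Figure D3:**
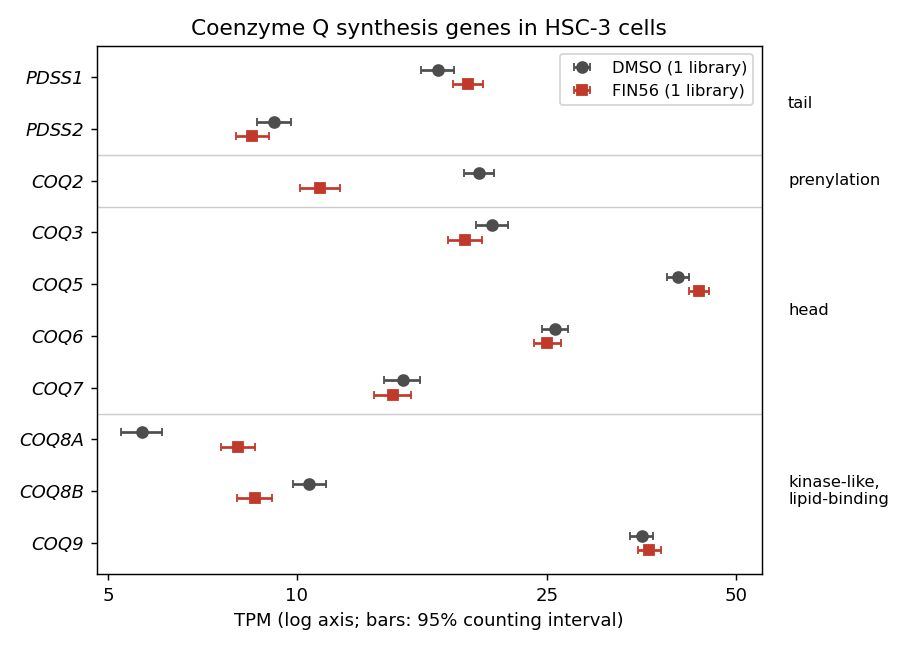
TPM of the 10 coenzyme Q synthesis genes (log axis) in the DMSO and the FIN56 library, with exact Poisson 95% counting intervals, grouped by role. The intervals of COQ2 (19.5 and 10.9) lie far apart, and COQ8A (5.66 and 8.06) comes up to COQ8B (10.5 and 8.56) in FIN56.

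Where FPKM and count ratios of a member part, the effective gene length that RSEM estimated from the mix of transcripts differed between the libraries. The length behind each FPKM value was computed from the count, the FPKM and the library total. For PDSS2 it was 2305 bases in DMSO and 2548 in FIN56, a longer mix in the FIN56 library. For COQ7 it was 1311 and 1199 bases, and for COQ6 1370 and 1269, both shorter in FIN56. These shifts bring the FPKM ratio of PDSS2 (0.902) below its counting interval of 0.913 to 1.09, and that of COQ6 (0.951) above its own. They were within the usual range, since 90% of the 10327 genes with more reads had an absolute log2 change in length of up to 0.17 and the greatest among the members, that of PDSS2, was 0.14. COQ8B, at 2197 and 2200 bases, had the smallest change. The transcripts behind each length were not analysed here.

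**Figure D4:**
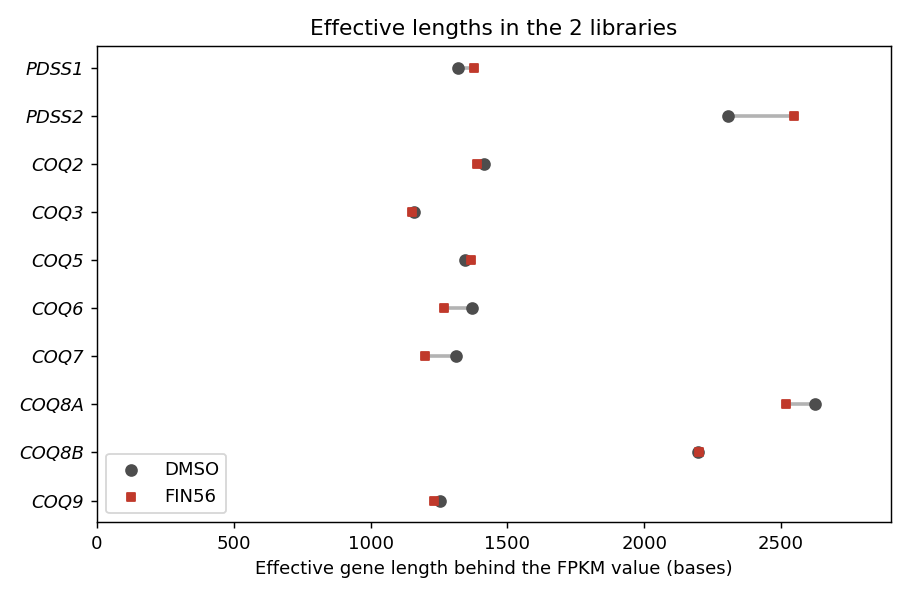
Effective gene length in bases behind the FPKM value of each coenzyme Q synthesis gene in the DMSO (circles) and FIN56 (squares) libraries, joined by a line. PDSS2 has the longest line (2305 and 2548 bases), and COQ6 and COQ7 are shorter in FIN56.

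The members lie on 8 chromosomes, with PDSS2 and COQ3 on chromosome 6 and COQ7 and COQ9 on chromosome 16. An annotated gene overlaps the span of 8 members, and COQ2 and COQ3 have none. In 5 members, exonic bases are shared with a gene of at least 100 expected counts. For COQ8A that gene is on the same strand, as given above. For the other 4 it is on the opposite strand, and although the library kit keeps the strand, whether the counting used it is not given in the sources used here, so these values are uncertain to that extent. COQ6 shares 2236 of its 6686 exonic bases with ENTPD5 on the opposite strand, whose FPKM was 8.12 in DMSO and 6.89 in FIN56, and 404 with FAM161B, at 2.90 and 2.55. PDSS1 shares 206 of 1913 exonic bases with ABI1, at an FPKM of 24.9 and 28.0. RNF10, at 92.4 and 87.3, shares 79 with COQ5, and ITPKC, at 6.20 and 6.44, shares 118 with COQ8B. Each of ENTPD5, FAM161B and ABI1 lay on the same side of 1 as its member, while RNF10 and ITPKC lay on the opposite side. The expected counts of PDSS1, COQ6 and COQ8A were not whole numbers in either library, nor was that of COQ9 in FIN56, and those of the other 6 members were whole in both. The remaining overlapping genes, among them HSPA8P3, RPL29P24 and COQ7-DT, had at most 6.36 counts in a library.

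The promoters of COQ2 and COQ8A are shown because these genes stand at the lower and the upper end of the members. The sequences are from RefSeq (GRCh38.p14), 5′ to 3′ on the strand of the gene. Of the 250 bases before the RefSeq start site, 116 of COQ2 and 8 of COQ8A lie inside the gene span that GENCODE release 44 annotates, which begins further upstream. The bases before that span are printed, at chr4:83284915-83285048 on the minus strand for COQ2 and chr1:226940044-226940285 on the plus strand for COQ8A. Capitals mark CCAAT, the CCAAT box, or its reverse complement ATTGG.
COQ2: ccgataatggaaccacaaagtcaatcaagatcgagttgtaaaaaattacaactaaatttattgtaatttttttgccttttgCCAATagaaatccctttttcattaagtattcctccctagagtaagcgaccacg
COQ8A: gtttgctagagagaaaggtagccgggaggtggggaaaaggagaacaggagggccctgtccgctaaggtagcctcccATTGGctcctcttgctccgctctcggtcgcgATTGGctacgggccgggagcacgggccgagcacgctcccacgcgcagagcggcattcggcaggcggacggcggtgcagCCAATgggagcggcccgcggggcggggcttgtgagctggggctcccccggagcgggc
COQ2 holds the CCAAT letters on its own strand 169 bases before the RefSeq start, as printed, and again 110 bases before it, inside the annotated gene span. COQ8A holds them 65 bases before it on its own strand and in the reverse complement 174 and 143 bases before. The members at the opposite ends of the order thus share this motif. Of all 35116 promoter windows, which run from 250 bases before to 50 after a start site, 34.6% hold it on either strand. The 250 bases before the RefSeq start of COQ2 are 45.6% G or C, the lowest among the members, and those of COQ8A 69.2%, against a median of 58.0% over all windows.

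Exact matches to 8 motifs were searched on both strands in the 15 windows of the 9 members with an entry, with several windows for COQ6, COQ7 and COQ8B. CCAAT was found in 7 of the 15 windows, against 34.6% of all windows. Among these, overlapping windows of COQ7 hold the same matches. By gene, 6 of the 9 members held it in at least 1 window, namely PDSS2, COQ2, COQ6, COQ7, COQ8A and COQ8B, against 39.7% of the 27305 genes with an entry, and members with several windows have more chances to hold it. The sterol response element letters TCACNCCAC were found in COQ5 alone, as GTGGAGTGA on the opposite strand from 36 to 28 bases before the start, and are in 1.13% of all windows. COQ5 had an FPKM ratio of 1.06, and any part of these letters in the level of a member was not tested. AAGATGG, of YY1, was also found in COQ5 alone and is in 5.84% of windows. CCGGAAG, of ETS factors, was found in COQ8B alone and is in 10.3%. TGACNNNGC, the core of the antioxidant response element, was found in 4 of the 15 windows, against 13.3% of all windows. Overlapping windows of COQ6 hold the same match, as do those of COQ7, so these windows are not separate sites. By gene, 2 of the 9 members held it, COQ6 and COQ7, against 16.1% of the genes with an entry. No member window held CGCATGCG (NRF1 core, in 2.02% of all windows), CACGTG (E-box, 7.26%) or TGATGNAA (ATF4, 3.62%). These matches describe letters in a window, and no binding was measured. Variant letters and sites outside the window are missed.

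Other genes of coenzyme Q biosynthesis were likewise found on either side of a ratio of 1. Of 9 such genes, 6 were higher and 3 lower in the FIN56 library, with a median log2 FPKM ratio of 0.13, while 55.2% of the 10327 genes with more reads were higher and 44.5% lower. COQ4, a component of the head-modifying complex, had 3410 counts in DMSO and 2203 in FIN56 and an FPKM of 39.2 and 25.6. It was the lowest of the list, at an FPKM ratio of 0.652 and a count ratio of 0.621 (0.588 to 0.655). STARD7, a lipid transfer protein that carries coenzyme Q between mitochondria and other membranes, was the most abundant, at 66.5 and 79.3 FPKM, a ratio of 1.19. HPDL, an enzyme of ring precursor synthesis, was the single gene of the list at or above 1.5, from 2 and 5 counts, too few to give a direction. COQ4 was the 1 gene of these 9 at or below 1/1.5, against 5.43% of the genes with more reads.

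The isoprenoid supply, the mevalonate steps that make the building blocks of the tail, was lower in most of its genes. Of 9 genes, 8 were lower and 4 lay at or below 1/1.5, with a median log2 FPKM ratio of -0.57, against 5.43% at or below 1/1.5 among the 10327 genes with more reads. Each of these 8 had a counting interval below 1, as did 37.4% of that background. MVD, the decarboxylase that yields isopentenyl diphosphate, stood at an FPKM of 12.7 with DMSO and 7.27 with FIN56 (0.574). IDI1, the isomerase that follows, had 44.1 and 25.5 (0.579), MVK, the mevalonate kinase, 19.95 and 11.7 (0.585), and ACAT2, the thiolase at the start of the pathway, 20.5 and 13.4 (0.652). COQ2, at 0.547, was not separable from MVD, IDI1 or MVK. Its counting interval (0.489 to 0.588) overlaps those of MVD (0.499 to 0.598), IDI1 (0.559 to 0.605) and MVK (0.547 to 0.629). Such overlap is not particular to this list. ADCK5, a relative of COQ8A given below, was also at 0.547, with an interval of 0.507 to 0.657. That of COQ4 (0.588 to 0.655) meets the COQ2 interval at its upper end. FDPS, the farnesyl diphosphate synthase whose product PDSS1 and PDSS2 extend, was the most abundant of the isoprenoid supply, at 132.0 and 93.0 (0.705). PMVK, named after its value was seen, was the single higher gene, at 1.41. CCAAT was found in 6 of the 7 genes of the list with a promoter entry and TCACNCCAC in 0, against 39.7% and 1.39% of all genes with an entry. Exact matching misses variant letters and sites outside the window, so 0 matches do not show that a sterol response element is absent. In the other related lists CCAAT was found in 4 of 7 other biosynthesis genes, 2 of 4 genes of competing branches, 1 of 9 reductases and 0 of 1 ADCK paralog.

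Of 7 genes that draw on the same isoprenoid pool for other products, 5 were higher and 2 lower, with a median log2 FPKM ratio of 0.14. Of the genes with more reads, 55.2% were higher and 44.5% lower. None of the 7 was past either threshold, which 2.92% and 5.43% of the genes with more reads passed. The counting interval lay above 1 for 5 and below 1 for 1, against 42.2% and 37.4%. Their summed TPM was lower in the FIN56 library, at 257.1 in DMSO and 231.3 in FIN56. This rests on FDFT1, at a TPM of 131.5 in DMSO and 91.6 in FIN56, a larger fall than that of the sum. The other genes of the list together were therefore higher. The difference between this list and the isoprenoid supply was not tested. FDFT1, the squalene synthase to which FIN56 binds and the most abundant of them, was lower, at 87.9 and 59.9 FPKM (0.682), short of 1/1.5.

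Enzymes that reduce coenzyme Q comprised 12 genes, of which 9 were higher by FPKM and 3 lower, with a median log2 FPKM ratio of 0.10, while 55.2% of the 10327 genes with more reads were higher. The counting interval lay above 1 for 6 of the 12, PRODH with few reads among them, and below 1 for 1, against 42.2% and 37.4% of that background. CHDH, the gene past an FPKM threshold, rested on 6 and 5 counts, and PRODH, with an FPKM ratio of 1.29 and a count ratio of 2.29, on 13.3 and 30.8. NQO1, a cytosolic quinone reductase and the most abundant gene of this list, had FPKM values of 410.2 (DMSO) and 315.9 (FIN56), a ratio of 0.770 and a count ratio of 0.733 (0.720 to 0.745). Of the 3 ADCK paralogs, relatives of COQ8A and COQ8B, 2 were higher and 1 lower. ADCK5 was lower, with 634 and 381 counts and an FPKM of 5.45 and 2.98, a ratio of 0.547. ADCK2, the most abundant of these, had 8.70 and 9.23 FPKM (1.06), and ADCK1, named after its value was seen, had 234 and 334 counts (FPKM ratio 1.41). The median of all genes moved by less than 0.1 on the log2 scale between FPKM, TPM, rlog and the count scalings, lying between -0.03 and 0.02.

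**Figure D5:**
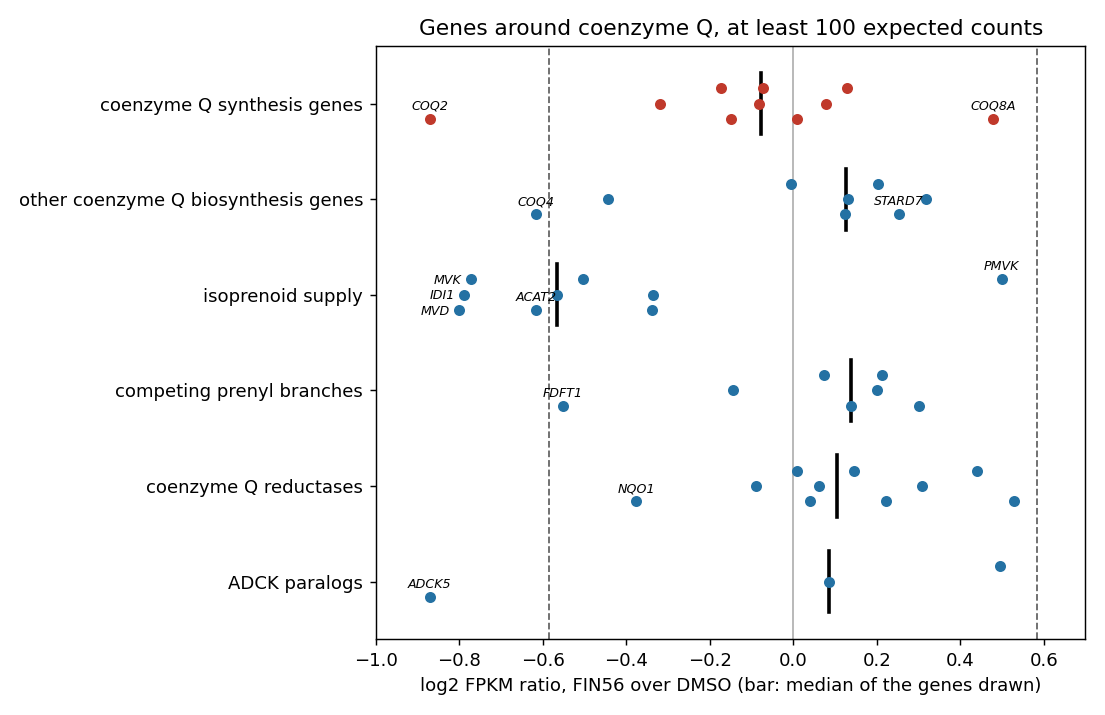
Log2 FPKM ratio (FIN56 over DMSO) of the coenzyme Q synthesis genes and of 5 lists of related genes, for genes with 100 or more expected counts over the libraries; each point is a gene, bars are medians of the genes drawn, and dashed lines mark 1.5 and 1/1.5. The isoprenoid supply lies left of 0 except for PMVK, whereas the coenzyme Q synthesis genes lie around 0 with COQ2 to the left and COQ8A to the right.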

How the data were processed

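The study's sequencing methods are written for tumor samples, and the same steps are assumed for both HSC-3 libraries. Per the submitters' processing notes, the authors aligned reads to GRCh38 with STAR 2.6.1a and estimated values with RSEM 1.3.1. Among the deposited values, expected counts carry no normalization, while FPKM and TPM were scaled by the authors for effective length and library size. The deposited rlog values, which the authors made with DESeq2 1.26.0, are log2 values.

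The main measure was the FPKM ratio, FIN56 over DMSO, with thresholds of 1.5 and 1/1.5, compared in whole hundredths of FPKM. No test between conditions was made. Expected counts were rounded for intervals and for scaling with edgeR 4.0.16 and DESeq2 1.42.0. Other computations used Python 3.11.15 with scipy 1.17.1, and ratios and intervals were tested on simulated data. The only random variation in those data was counting error. They therefore check the computation and say nothing of differences between cultures or of how reads were assigned. The members and lists were chosen with earlier results of these data known. All members are named, with related genes past a threshold at 100 or more counts together, the most abundant gene of each list, and overlapping genes; PMVK, HPDL, CHDH, PRODH and ADCK1 were named after their values were seen. Positions came from GENCODE release 44 on GRCh38, in which 99.7% of the identifiers were found; the methods name an earlier Ensembl release for the tumor samples. Which release the HSC-3 tables used was not checked, and effective lengths and reads divided between overlapping genes depend on it. Alternatives were TPM, rlog, 3 count scalings, pseudocounts of 0.1 and 1 FPKM, minimum values of 1 FPKM or 10 counts in both libraries, and thresholds of 2 and 1.2.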

Additional observations from a re-analysis of the deposited data

How the results depend on the processing

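No paired analysis was possible because there was a single library of either kind, which also made leaving out a replicate impossible. At a threshold of 1.5 no member was past it under any alternative, and COQ2 was the 1 member at or below 1/1.5 under all of them except rlog, where 0 members were. The rlog transformation draws the libraries towards each other, and COQ2 had a log2 difference of -0.30 there, against -0.87 by FPKM and between -0.90 and -0.79 under the other alternatives. At a threshold of 2, 0 members were lower, and at 1.2, 1 member was higher and 2 were lower, as the threshold itself brings about. The median log2 ratio of the members stayed below 0, between -0.10 and -0.02. Every member passed both filters on low values, which therefore repeat the FPKM result. Of 70 single member values under the 7 other settings, 61 lay within counting error of the FPKM value. Of the other 9, 4 came from rlog and 5 from the count scalings. TPM differs from FPKM by nearly the same factor for every member, and the pseudocounts are small beside most member levels. Those settings could therefore hardly bring a value outside. PDSS2 and COQ9 changed direction between alternatives, and the other 8 members kept theirs. Each alternative rescales the same libraries, so a kept direction is no replicate check, and no member has an established direction. For PDSS2 the effective length differed between the libraries, as described above. Among related genes with 100 or more counts, the isoprenoid supply had 4 genes at or below 1/1.5 by FPKM, TPM, library totals and TMM, 3 by median of ratios, without ACAT2, and 0 by rlog, with 8 of 9 lower under each. COQ4 lay on the line of 1/1.5 by TPM, with 58.65 in DMSO and 39.1 in FIN56, a ratio of 0.667. By rlog neither COQ4 (0.834) nor ADCK5 (0.858) reached 1/1.5.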
